A study of Danio rerio with 6 samples.

Results

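The data described here are the transcript levels of the whole zebrafish eye at mid-night against mid-day. Genes were taken where the higher of the 2 eye libraries reached at least 5 FPKM (fragments counted per gene, corrected for gene length and for library size), which 12735 of the 32105 genes in the deposited table did. The night eye library was a pool of 6 eyes taken at ZT18, which is 18 h after lights on, and the day eye library was a pool of 6 eyes taken at ZT6. All fish were adults of the Tg(aanat2:EGFP) line, 0.5 to 1.5 years old, in cycles of 12 h light and 12 h dark. The transgene, in which the aanat2 control region drives EGFP in the pineal gland, was carried by both groups, and fish without it were not analysed here. Night and day libraries of the pineal gland (18 glands each) and of mixed organs were sequenced in the same series. The mixed libraries combined equal RNA of ovary, liver, gill, brain, kidney, muscle, intestines and heart, from 4 to 8 of each organ.

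There was 1 library per tissue and time, so no difference below has a test or a replicate check, and each is given by its size. The reads behind the FPKM values numbered 13418642 in the night eye and 15016838 in the day eye. Intervals in parentheses after a fold are 95% exact (Clopper-Pearson) intervals of the ratio from these reads, and they cover counting error only. The libraries matched their label. The ultraviolet cone opsin gene OPN1SW (ENSDARG00000045677) was at 1295 FPKM in the night eye and 1246 FPKM in the day eye, and the lens crystallin CRYAA (ENSDARG00000053502) was at 341 FPKM in the night eye and 698 FPKM in the day eye. In the pineal and mixed libraries the same opsin gene reached at most 1.43 FPKM, and the crystallin at most 0.135 FPKM.

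The circadian clock of vertebrates is a transcriptional loop. CLOCK or NPAS2 pairs with BMAL1 to switch on period, cryptochrome, NR1D and D-box factor genes, and the period and cryptochrome proteins then shut the pair off. A linked loop works through ROR activators and NR1D repressors, which compete at the BMAL1 gene. In the fish retina, photoreceptors hold their own clocks, make melatonin at night and change many of their light-response genes over the day.

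Of the 12735 genes, 750 (5.89%) were at least 2-fold higher and 683 (5.36%) at least 2-fold lower in the night eye on the log2(FPKM + 1) scale, 11.3% in all. A gene is said below to have risen or fallen where it passed this size, and every count of a list is to be read against these shares. At 4-fold the counts were 149 higher and 135 lower, and at 16-fold they were 24 and 13. The counting interval of the ratio lay wholly past 2-fold for 1166 of the 1433 genes. The median gene had a night minus day difference of 0.10 (log2), with quartiles of -0.21 and 0.37. Scaling by the median ratio moved that median to 0.00 and the counts to 607 higher and 821 lower, so that 42.5% of the genes past 2-fold were higher instead of 52.3%. Medians of gene lists are given on the unscaled values and are to be set beside 0.10. Of the 750 higher genes, 402 were under 5 FPKM in the day eye, and 248 of the 683 lower genes were under 5 FPKM in the night eye. Such genes entered through 1 library only and were bound to differ.

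**Figure D1:**
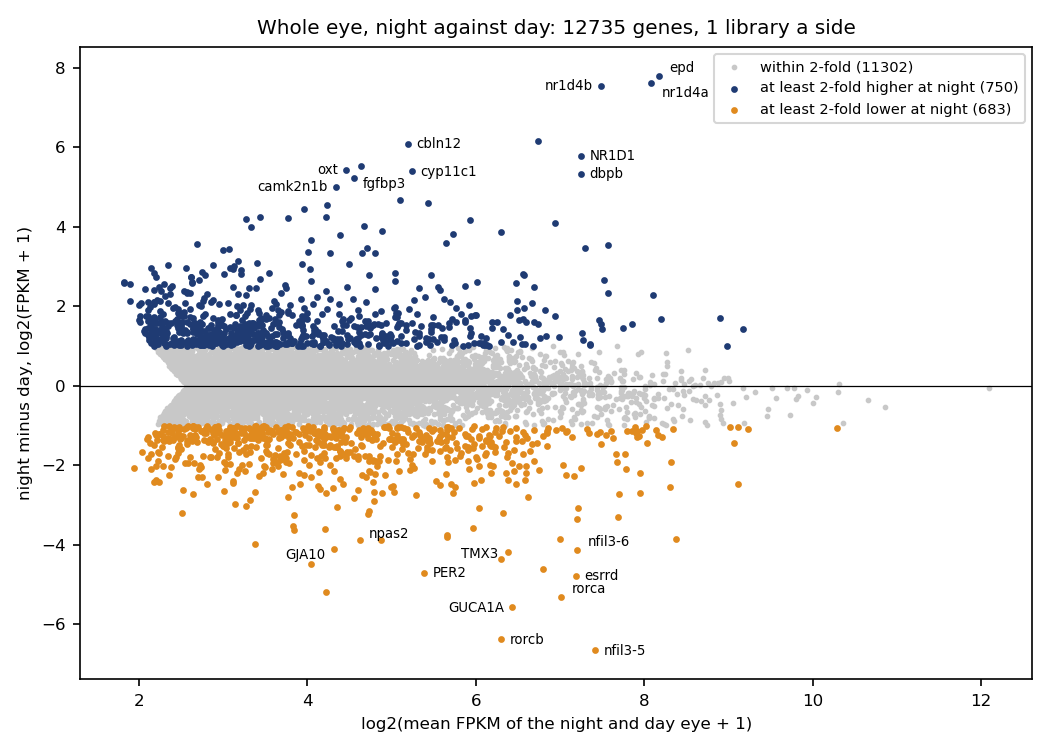
Night minus day difference on log2(FPKM + 1) (vertical) against the log2 of mean eye FPKM plus 1 (horizontal) for the 12735 genes, each point a gene. Blue points are the 750 genes at least 2-fold higher in the night eye, orange points the 683 at least 2-fold lower, and the 10 named genes with the largest difference on each side are labelled.

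The night and day pools also differed in markers of tissues that a dissected eye can carry in varying amounts. Of 85 genes on a list of lens crystallins, lens membrane and lens fibre genes, 57 reached 5 FPKM, of which 1 rose and 35 fell, with a median of -1.08. Their summed level over all 85 was 8857 FPKM in the night eye and 16541 FPKM in the day eye, with 11 genes listed at 0 at night and 7 by day, all of them gamma crystallins of the crygm2d group apart from MAF. The structural genes of the lens moved together. The crystallin CRYBB3 (ENSDARG00000041301) was at 813 FPKM in the night eye and 1687 FPKM in the day eye, the fibre membrane channel MIP (ENSDARG00000037285) at 138 FPKM in the night eye and 304 FPKM in the day eye, and the beaded filament gene BFSP1 (ENSDARG00000074919) at 172 FPKM in the night eye and 421 FPKM in the day eye. The gamma crystallins are near-identical copies, and the counting could split reads between them. Whether the pools differed in the number of lens cells or in RNA per lens cell cannot be told apart in bulk tissue, here or for the other lists.

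Brain transcripts moved the other way. Among 91 transcription factors that mark brain regions, 28 reached 5 FPKM, 18 of these rose and 1 fell, and 17 of the 28 reached 5 FPKM only at night. Of the 63 members under 5 FPKM in both eye libraries, 53 were higher and 7 lower at night. The list summed to 654 FPKM in the night eye and 466 FPKM in the day eye. Listed at 0 were 5 members at night and 16 by day, and those at 0 by day alone included the region markers EN1, EN2, NKX2-1 and DLX1. Other brain genes, of cerebellum, hypothalamus and neuropeptides, numbered 77. They summed to 2131 FPKM at night and 1629 FPKM by day, 11 of the 35 that reached 5 FPKM rose and 1 fell, and 20 were listed at 0 in the day eye against 7 in the night eye. Of the rises, only CBLN1 (ENSDARG00000057296), cbln2a (ENSDARG00000074601) and adcyap1b (ENSDARG00000027740) reached 5 FPKM in both eye libraries. The other rises reached it at night only and so were bound to differ. The fish brain glycoprotein gene epd (ENSDARG00000103498) was at 574 FPKM in the night eye and 1.57 FPKM in the day eye, and without it the list summed to 1557 FPKM in the night eye and 1628 FPKM in the day eye, so that this 1 gene set the direction of the sum. The cerebellin-family gene cbln12 (ENSDARG00000068232) was at 71 FPKM in the night eye and 0.0602 FPKM in the day eye, and oxt (ENSDARG00000042845), the gene of the oxytocin-type hormone, was at 42 FPKM at night and listed at 0 by day. The hindbrain and midline factor ZIC1 (ENSDARG00000015567) was at 65 FPKM in the night eye and 1.59 FPKM in the day eye.

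Myelin and general neuronal genes shifted in the same direction as the brain lists. Of 23 myelin and oligodendrocyte genes 18 reached 5 FPKM, 6 rose and 0 fell, and the list summed to 1018 FPKM at night and 468 FPKM by day. Myelin basic protein, mbpa (ENSDARG00000036186), was at 446 FPKM in the night eye and 137 FPKM in the day eye. Of 39 general neuronal genes 36 reached 5 FPKM, 10 rose and 0 fell, and the sum was 3903 FPKM at night and 3097 FPKM by day. The vesicular glutamate transporter SLC17A6 (ENSDARG00000001127) was at 19.6 FPKM in the night eye and 0.0766 FPKM in the day eye, and the forebrain kinase CAMK2A (ENSDARG00000053617) was at 28.8 FPKM in the night eye and 0.371 FPKM in the day eye. The medians were 1.44 for the brain transcription factors, 0.65 for the other brain genes, 0.74 for myelin and 0.59 for the neuronal genes. Members that reached 5 FPKM at night only were bound to be higher at night, and the size of these medians rests in part on them. They include most of the brain transcription factors as well as SLC17A6 and CAMK2A. Some of these genes are also used in retina or optic nerve. The brain transcription factor that fell, foxg1b (ENSDARG00000032705), was at 45.8 FPKM in the night eye and 220.3 FPKM in the day eye and stood under 12 FPKM in the 4 other libraries. The part of these markers in the results below was not tested. Beside them, 83 of the 750 higher genes and 18 of the 683 lower genes were at least 4-fold higher in mixed day organs, which include brain, than in the day eye, as were 529 of all 12735 genes. The day eye value enters both this comparison and the night minus day difference. A low day value favours both, so the gap between 83 and 18 was in part set in advance. Without the lens, brain, myelin and neuronal lists the counts were 704 higher and 646 lower.

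**Figure D2:**
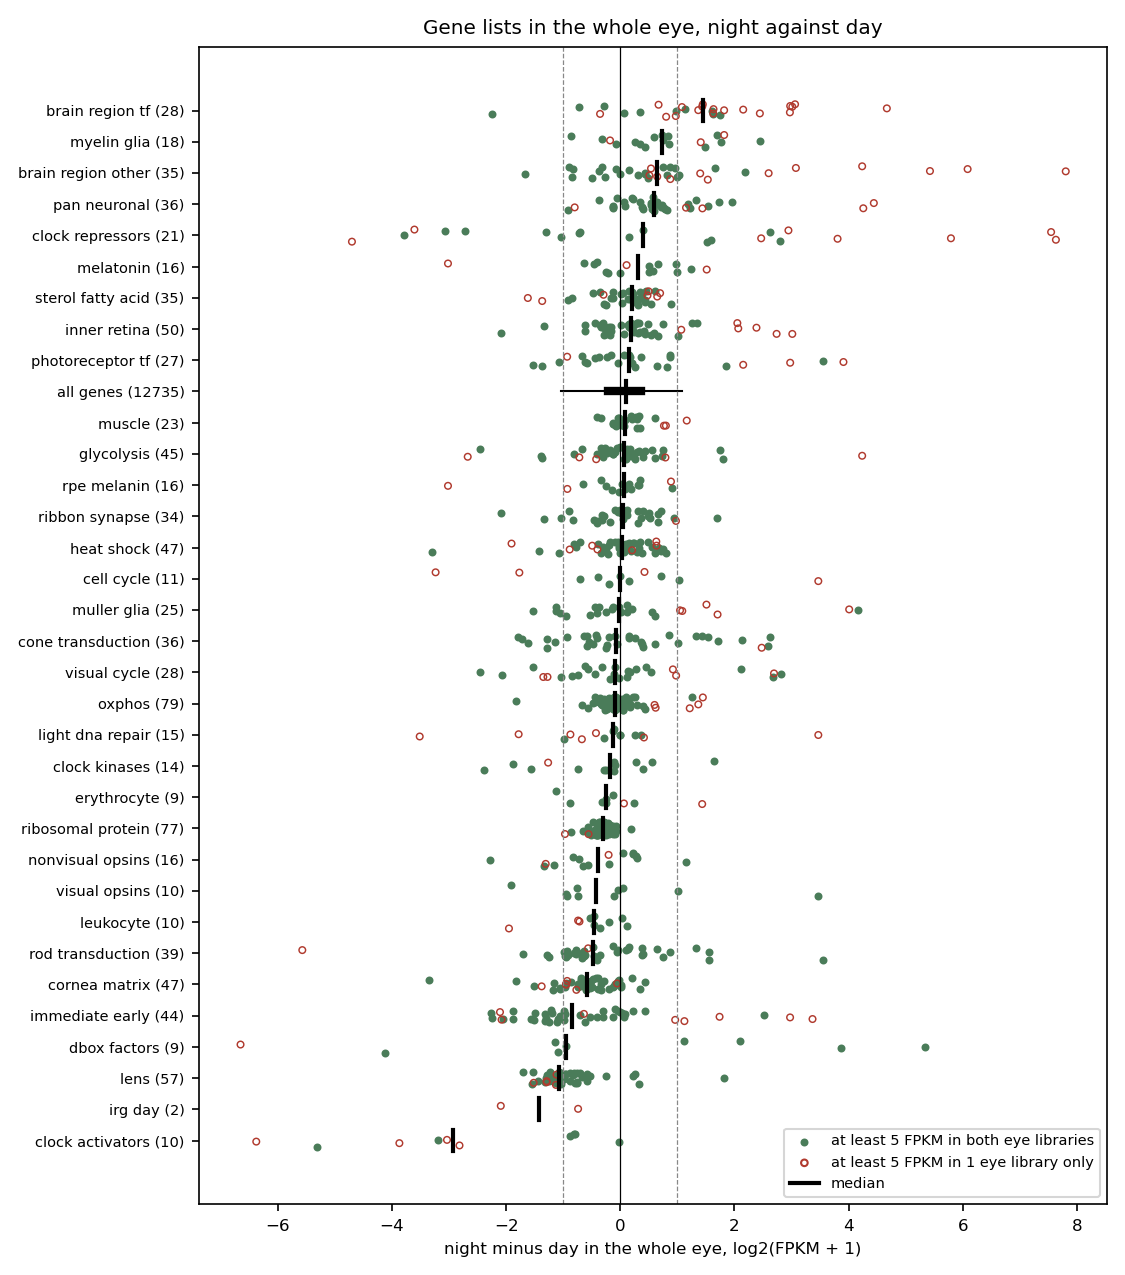
Night minus day difference on log2(FPKM + 1) in the whole eye for the genes of 33 lists, each point a gene and the number that reached 5 FPKM in parentheses. Filled points had at least 5 FPKM in both eye libraries, open points in 1 only, black ticks are medians, and the bar for all genes spans the quartiles with a line from the 5th to the 95th percentile. The brain, myelin and neuronal lists lie at the top, and the clock activator and lens lists near the bottom.

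The activator arm of the clock was low in the night eye. All 10 members that reached 5 FPKM, of 12 matched, were below 0, and 6 of them fell, with a median of -2.93. Of those that fell, rorcb, npas2 and both BMAL1 genes reached 5 FPKM in the day eye only and so were bound to differ. The size of the median rests in part on them. The ROR-type receptor rorcb (ENSDARG00000017780) was at 0.877 FPKM in the night eye and 155 FPKM in the day eye, which is 177-fold lower at night (147 to 215). Its relative rorca (ENSDARG00000057231) was at 5.3 FPKM in the night eye and 251 FPKM in the day eye, 47.3-fold lower at night (40.1 to 56.1), and rorab (ENSDARG00000001910) was at 14.8 FPKM in the night eye and 143 FPKM in the day eye. The ROR proteins switch on BMAL1. Both BMAL1 genes were low at night as well, BMAL1 (ENSDARG00000035732) at 3.43 FPKM at night and 35.3 FPKM by day and BMAL1 (ENSDARG00000006791) at 4.82 FPKM at night and 40 FPKM by day. The CLOCK partner npas2 (ENSDARG00000016536) was at 2.17 FPKM in the night eye and 45.3 FPKM in the day eye, 20.9-fold lower at night (16.7 to 26.6). CLOCK itself differed less, CLOCK (ENSDARG00000011703) being at 5.33 FPKM at night and 9.98 FPKM by day and CLOCK (ENSDARG00000003631) at 6.38 FPKM at night and 11.9 FPKM by day, both short of 2-fold. RORB (ENSDARG00000033498), a ROR with wide use in neurons, was at 26 FPKM at night and 26.3 FPKM by day, a difference within its counting interval.

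The repressor arm was divided. Of 23 matched members 21 reached 5 FPKM, 10 rose and 7 fell. The NR1D group, nuclear receptors that hold BMAL1 down, gave the largest rises. nr1d4a (ENSDARG00000031161) was at 537 FPKM in the night eye and 1.71 FPKM in the day eye, 314-fold higher at night (239 to 422), and nr1d4b (ENSDARG00000059370) at 357 FPKM in the night eye and 0.911 FPKM in the day eye, 392-fold higher at night (280.2 to 566). NR1D1 (ENSDARG00000033160) was at 298 FPKM in the night eye and 4.39 FPKM in the day eye. These 3 genes were under 5 FPKM in the day eye, while in the night eye they were the 3 most abundant transcripts of the clock and D-box lists. The other NR1D genes did not move with them, since NR1D2 (ENSDARG00000009594) was at 71 FPKM at night and 53.9 FPKM by day and nr1d2a (ENSDARG00000003820) at 45.1 FPKM at night and 73.7 FPKM by day.

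Period and cryptochrome genes split by family member. PER1 (ENSDARG00000056885) was at 38.1 FPKM in the night eye and 1.79 FPKM in the day eye, 21.2-fold higher at night (18.2 to 25), and a second period gene named PER1, ENSDARG00000012499, was at 21.8 FPKM at night and 6.9 FPKM by day. PER2 (ENSDARG00000034503), a light-induced period gene of fish, was at 2.1 FPKM in the night eye and 79.6 FPKM in the day eye, 37.9-fold lower at night (32.3 to 44.8), and PER3 (ENSDARG00000010519) was at 8.31 FPKM at night and 22.1 FPKM by day. Both genes named CRY1 fell, ENSDARG00000045768 with 5.78 FPKM at night and 93 FPKM by day and ENSDARG00000011583 with 1.8 FPKM at night and 33.1 FPKM by day. The cryptochromes cry3a (ENSDARG00000069074) and cry3b (ENSDARG00000091131) fell too, to 54.2 and 12.9 FPKM in the night eye, against 361 and 116 FPKM in the day eye. CRY2 (ENSDARG00000102403) was the 1 cryptochrome gene of the list that rose, with 56 FPKM at night and 17.9 FPKM by day, and cry4 (ENSDARG00000011890) fell with 6.22 FPKM at night and 13.9 FPKM by day.

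Among the smaller repressors, BHLHE41 (ENSDARG00000041691), a helix-loop-helix repressor that competes for CLOCK sites, was at 165 FPKM in the night eye and 22.8 FPKM in the day eye, 7.24-fold higher at night (6.79 to 7.73). Its relative BHLHE40 (ENSDARG00000004060) ran the other way without reaching 2-fold, at 135 FPKM at night and 222 FPKM by day. In the pineal gland the same gene was at 12.6 FPKM at night and 301 FPKM by day, so its night level there was far below its day level. The repressors cipca (ENSDARG00000075397) and ciartb (ENSDARG00000088171) reached 27.9 and 55.6 FPKM at night, against 2.75 and 8.12 FPKM by day.

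D-box factors bind a shared site in clock output genes, where DBP, TEF and HLF activate and NFIL3 represses. Of 10 matched, 9 reached 5 FPKM, 4 rose and 4 fell. The activator dbpb (ENSDARG00000057652) was at 296 FPKM in the night eye and 6.37 FPKM in the day eye, 46.5-fold higher at night (42.6 to 51). dbpa (ENSDARG00000063014) was at 147 FPKM in the night eye and 9.17 FPKM in the day eye, tefb (ENSDARG00000098103) at 164 FPKM in the night eye and 37.7 FPKM in the day eye and tefa (ENSDARG00000039117) at 107 FPKM in the night eye and 48.8 FPKM in the day eye. All 4 genes of the DBP and TEF type were higher at night. The repressor nfil3-5 (ENSDARG00000094965) was at 2.36 FPKM in the night eye and 337 FPKM in the day eye, 143-fold lower at night (121 to 170.3), and nfil3-6 (ENSDARG00000087188) was at 15 FPKM in the night eye and 278 FPKM in the day eye, 18.5-fold lower at night (16.9 to 20.3). NFIL3 (ENSDARG00000042977) fell as well, with 5.79 FPKM at night and 13.5 FPKM by day. The HLF genes differed from the other activators, with HLF (ENSDARG00000061011) at 24 FPKM at night and 54.3 FPKM by day, a fall, and hlfa (ENSDARG00000074752) at 95.7 FPKM at night and 185 FPKM by day, short of 2-fold.

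**Figure D3:**
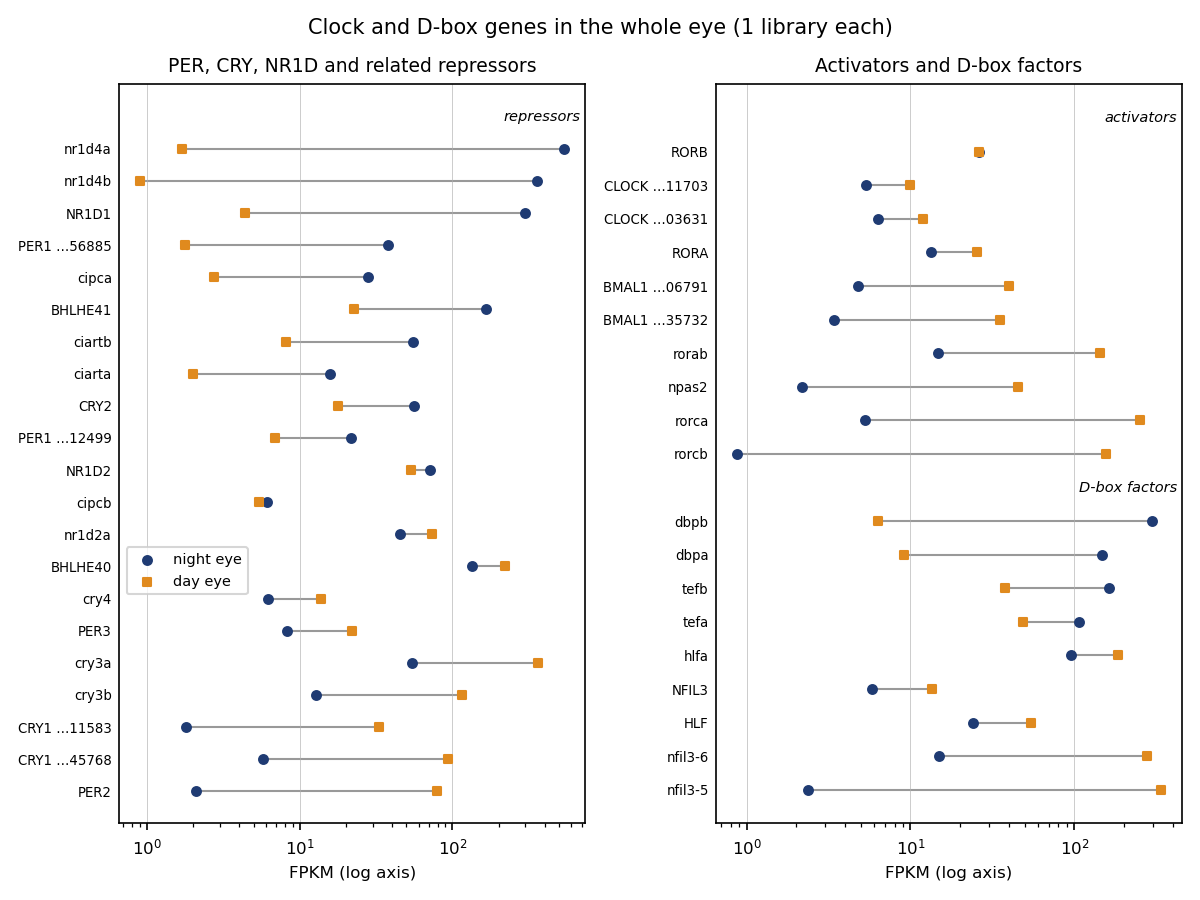
FPKM (log axis) of clock repressors (left) and of clock activators and D-box factors (right) in the night eye (blue circles) and day eye (orange squares), 1 library each, for members that reached 5 FPKM. The 3 NR1D genes at the top of the left panel lie from 298 to 537 FPKM at night and from 0.911 to 4.39 FPKM by day, while nfil3-5 at the bottom of the right panel is at 2.36 FPKM at night and 337 FPKM by day.

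Among enzymes that tune clock proteins, of 15 matched genes 14 reached 5 FPKM, 1 rose and 4 fell. The salt-inducible kinase SIK1 (ENSDARG00000058606) was at 267 FPKM in the night eye and 84.6 FPKM in the day eye, and in the pineal gland it was at 936 FPKM at night and 56.2 FPKM by day. A related kinase gene, SIK2 (ENSDARG00000062315), fell with 13.8 FPKM at night and 76.4 FPKM by day. A second gene named SIK2, ENSDARG00000079618, was within 2-fold in the eye, at 12.9 FPKM at night and 15.5 FPKM by day. In the pineal gland this second gene was at 40.6 FPKM at night and 1.53 FPKM by day. The ubiquitin protease genes USP2 (ENSDARG00000020107) and usp2b (ENSDARG00000074120) fell to 19 and 24.6 FPKM at night, against 58.5 and 93.2 FPKM by day. Casein kinase genes that mark period proteins were within 2-fold.

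Melatonin synthesis runs from tryptophan through serotonin, and its acetylation by AANAT is the step that sets the night rise. Of 24 matched genes of synthesis, cofactor supply and receptors, 16 reached 5 FPKM, 3 rose and 1 fell. The first enzyme, TPH1 (ENSDARG00000029432), was at 40.5 FPKM in the night eye and 16.7 FPKM in the day eye, and the decarboxylase DDC (ENSDARG00000016494) was at 14.8 FPKM in the night eye and 4.54 FPKM in the day eye. A second gene named TPH1, ENSDARG00000036082, had the opposite order under 5 FPKM, at 1.54 FPKM at night and 4.17 FPKM by day. AANAT (ENSDARG00000036567) was at 135 FPKM in the night eye and 67.2 FPKM in the day eye, 2.02-fold higher at night (1.9 to 2.14). The second acetyltransferase gene, aanat2 (ENSDARG00000079802), was the more abundant in the eye at 254 FPKM at night and 160.2 FPKM by day and did not reach 2-fold. Its levels in the pineal gland were 1922 FPKM at night and 491 FPKM by day. The last enzyme, ASMT (ENSDARG00000098249), differed little in the eye, with 39.4 FPKM at night and 27.6 FPKM by day. The gene that fell, gch2 (ENSDARG00000099101), a GTP cyclohydrolase of the pteridine pathway of pigment cells, was at 1.12 FPKM at night and 16.2 FPKM by day.

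Visual opsins, the light sensors of rods and cones, held 10 members over 5 FPKM of 11 matched, and 2 rose while 1 fell. The green-cone opsins sit in an array of related copies, as do the red-cone opsins, and reads could be split between copies where these are alike. The copies were not compared in sequence here, so how far this applies is not known. Within the green array opn1mw1 (ENSDARG00000097008) was at 288 FPKM in the night eye and 25.1 FPKM in the day eye, 11.5-fold higher at night (10.7 to 12.3). opn1mw3 (ENSDARG00000044279) was at 132 FPKM in the night eye and 504 FPKM in the day eye, 3.81-fold lower at night (3.65 to 3.98). opn1mw2 (ENSDARG00000044280) was at 637 FPKM at night and 1059 FPKM by day and opn1mw4 (ENSDARG00000000638) at 259 FPKM at night and 438 FPKM by day, both short of 2-fold. In the red pair opn1lw2 (ENSDARG00000044861) was at 677 FPKM in the night eye and 334 FPKM in the day eye and opn1lw1 (ENSDARG00000044862) at 902 FPKM in the night eye and 1726 FPKM in the day eye. Each copy is set here against its own day level, opn1lw1 being lower at night and opn1lw2 higher, and opn1lw1 was the more abundant at both times. The ultraviolet opsin gene given above was close to equal, as was the blue-cone opsin gene opn1sw2 (ENSDARG00000017274), at 939 FPKM at night and 1016 FPKM by day.

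Opsins outside image vision were less abundant. Of 28 matched, 16 reached 5 FPKM, 1 rose and 4 fell. opn6a (ENSDARG00000102430) was at 73.1 FPKM in the night eye and 32.2 FPKM in the day eye, and in the pineal gland it was at 130.0 FPKM at night and 65.9 FPKM by day. OPN3 (ENSDARG00000052775), an opsin first known from brain, was at 7.85 FPKM in the night eye and 42.1 FPKM in the day eye, 5.37-fold lower at night (4.44 to 6.54). opn6b (ENSDARG00000098051), a relative of opn6a, fell with 22.6 FPKM at night and 58.5 FPKM by day. Melanopsins, the opsins of intrinsically light-sensitive retinal neurons, were mixed. opn4xb (ENSDARG00000103259) and an OPN4 gene, ENSDARG00000022098, fell to 5.74 and 4.94 FPKM at night, against 14.2 and 13.7 FPKM by day. The most abundant melanopsin gene, ENSDARG00000007553, was at 60.8 FPKM at night and 95.5 FPKM by day.

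Light closes the outer segment channel through transducin, phosphodiesterase and a fall in cyclic GMP, and guanylate cyclase with its activating proteins restores it. Of 36 genes on a list of the cone cascade, all of which reached 5 FPKM, 9 rose and 6 fell, which is 41.7% of the list beside 11.3% of all genes. The cone channel genes were all higher at night. CNGA3 (ENSDARG00000012297) was at 110.1 FPKM in the night eye and 17.1 FPKM in the day eye, 6.44-fold higher at night (5.89 to 7.07), and CNGA3 (ENSDARG00000070726) at 145 FPKM at night and 32.5 FPKM by day. Their partner subunits cngb3.1 (ENSDARG00000101225) and cngb3.2 (ENSDARG00000101368) were at 152 and 65 FPKM at night, against 24.4 and 21.8 FPKM by day. The cone phosphodiesterase PDE6C (ENSDARG00000100397) was at 839.6 FPKM in the night eye and 309 FPKM in the day eye, 2.72-fold higher at night (2.67 to 2.76). Its inhibitory subunits moved in opposite directions, PDE6H (ENSDARG00000056791) with 731 FPKM at night and 221 FPKM by day and pde6ha (ENSDARG00000102558) with 18.7 FPKM at night and 63.7 FPKM by day. Cone transducin, GNAT2 (ENSDARG00000042529), was at 827 FPKM at night and 987 FPKM by day, within 2-fold.

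Of 40 matched rod genes 39 reached 5 FPKM, 26 were below 0 and 13 above, and 4 rose and 4 fell, with a median of -0.49. Over all genes 5154 were below 0 and 7581 above. The list shares 7 genes with the cone list. Rod transducin GNAT1 (ENSDARG00000044199) was at 1421 FPKM at night and 1814 FPKM by day, and the rod phosphodiesterase genes PDE6B (ENSDARG00000000380) and PDE6B (ENSDARG00000011671) were at 349 and 203 FPKM at night, against 489 and 387 FPKM by day. The arrestins parted, as saga (ENSDARG00000012610) was at 344 FPKM in the night eye and 117 FPKM in the day eye and sagb (ENSDARG00000038378) was at 128 FPKM at night and 253 FPKM by day, just short of 2-fold. RGS9BP (ENSDARG00000086756), which anchors the protein that ends the transducin signal, rose with 267 FPKM at night and 90.5 FPKM by day.

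Guanylate cyclase and its regulators held the largest difference of the cascade. GUCA1A (ENSDARG00000101567), an activating protein of the cyclase, was at 2.56 FPKM in the night eye and 168 FPKM in the day eye, 65.7-fold lower at night (56.5 to 76.9). It stayed under 1 FPKM in all 4 pineal and mixed libraries. A related gene, guca1g (ENSDARG00000045737), had the opposite order with 13.8 FPKM at night and 1.65 FPKM by day, while guca1d (ENSDARG00000044629) and guca1c (ENSDARG00000030758) fell to 27.8 and 120.3 FPKM at night, against 98.7 and 266 FPKM by day. The cyclases also parted, with gucy2d (ENSDARG00000026820) at 218 FPKM in the night eye and 86.5 FPKM in the day eye and gucy2f (ENSDARG00000025504) at 33.9 FPKM in the night eye and 81.9 FPKM in the day eye. The recoverin gene rcvrna (ENSDARG00000052223), whose protein slows the opsin kinase, fell with 101 FPKM at night and 334 FPKM by day. Other recoverin genes were within 2-fold. RCVRN (ENSDARG00000019902) was at 478 FPKM at night and 361 FPKM by day, and RCVRN (ENSDARG00000009637) at 55 FPKM at night and 105 FPKM by day. Paralogues of the same step thus lay on opposite sides of 0 for the cyclases, the arrestins and the inhibitory phosphodiesterase subunits. Among the activators named here only guca1g was higher at night. It reached 5 FPKM at night only and GUCA1A by day only, so both were bound to differ. The activators guca1d and guca1c, which reached it in both eye libraries, fell.

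**Figure D4:**
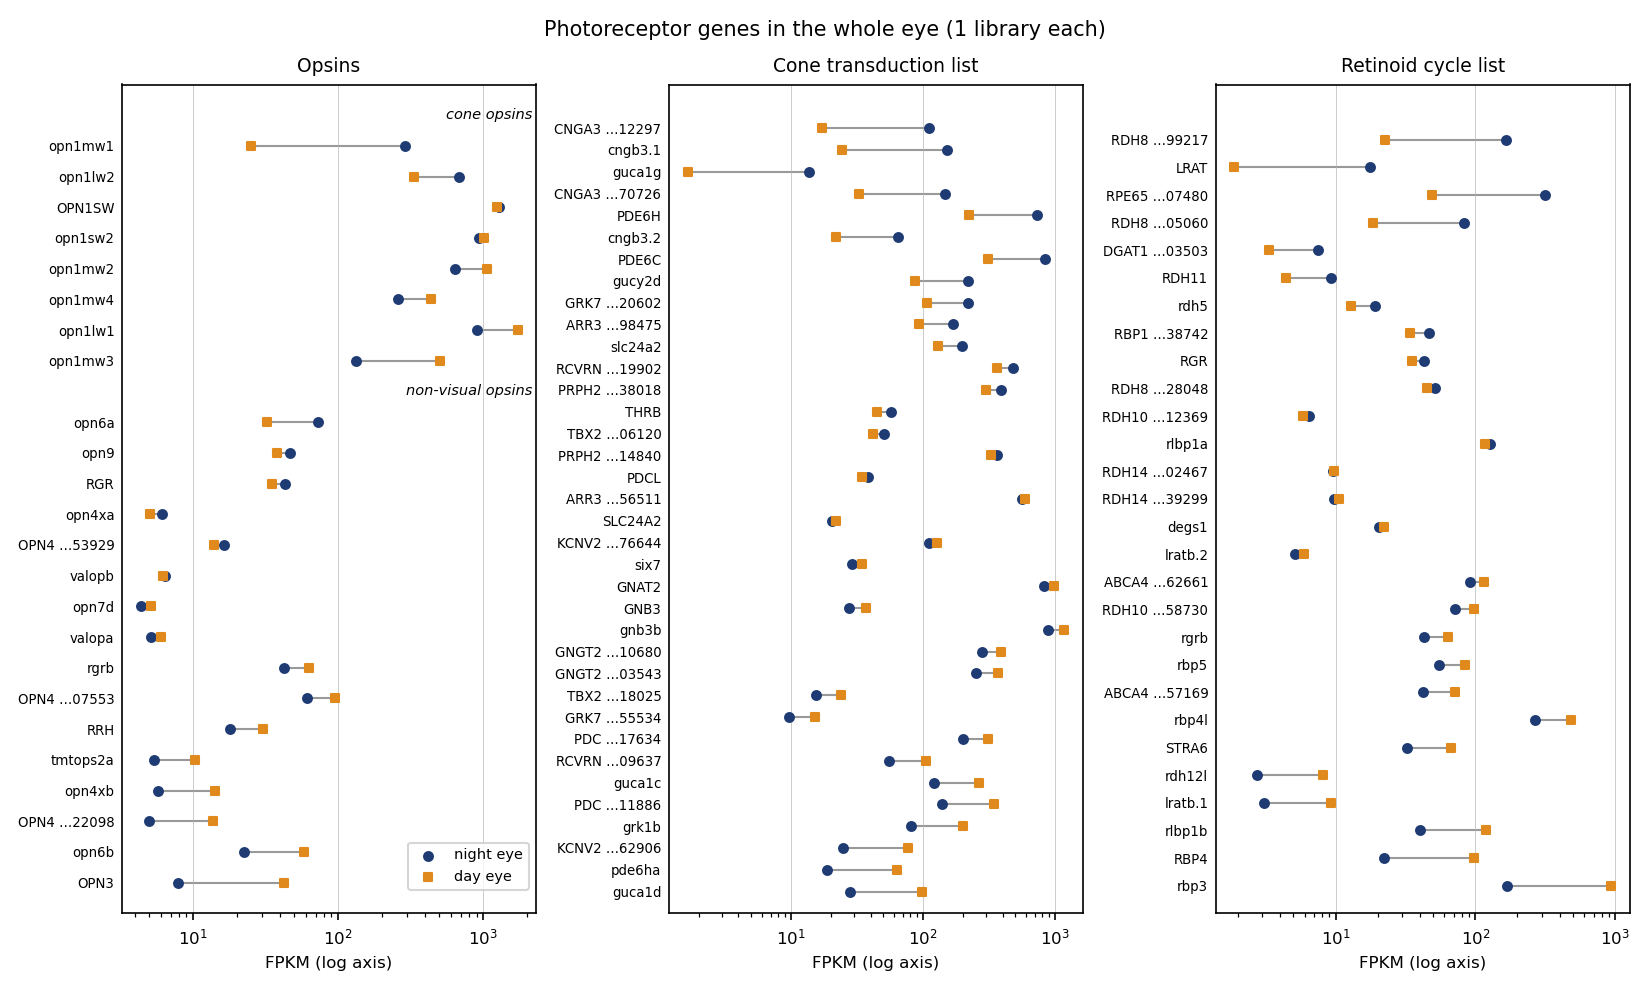
FPKM (log axis) of cone and non-visual opsins, cone transduction genes and retinoid cycle genes in the night eye (blue circles) and day eye (orange squares), 1 library each, for members that reached 5 FPKM, sorted by the night minus day difference. The opsin panel holds the cone opsins and below them the non-visual opsins, each block sorted on its own. Each block, and each of the other panels, has genes with higher night values at the top and genes with higher day values at the bottom.

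The retinoid cycle returns spent chromophore to the opsins. Of 34 matched genes 28 reached 5 FPKM, 4 rose and 6 fell. Those that rose were enzymes. RPE65 (ENSDARG00000007480), the isomerase, was at 316 FPKM in the night eye and 48.8 FPKM in the day eye, 6.47-fold higher at night (6.1 to 6.88). LRAT (ENSDARG00000037278), which makes its ester substrate, was at 17.7 FPKM at night and 1.89 FPKM by day, and the photoreceptor dehydrogenase genes RDH8 (ENSDARG00000099217) and RDH8 (ENSDARG00000105060) were at 165 and 83.2 FPKM at night, against 22.5 and 18.5 FPKM by day. A further gene named RDH8, ENSDARG00000028048, was within 2-fold, at 51.3 FPKM at night and 45.3 FPKM by day. Those that fell were 3 carriers, an uptake receptor and 2 enzymes. rbp3 (ENSDARG00000059163), which shuttles retinoid between photoreceptors and pigment epithelium, was at 169 FPKM in the night eye and 938 FPKM in the day eye, 5.53-fold lower at night (5.37 to 5.7), and RBP4 (ENSDARG00000101199), the retinol carrier of plasma, was at 22.2 FPKM at night and 97 FPKM by day. rlbp1b (ENSDARG00000045808), a cellular retinal carrier, and STRA6 (ENSDARG00000051874), the retinol uptake receptor, fell to 40.5 and 32.4 FPKM at night, against 118.8 and 67.4 FPKM by day. The enzyme genes rdh12l (ENSDARG00000045277) and lratb.1 (ENSDARG00000096594) also fell, to 2.75 and 3.06 FPKM at night, against 8.07 and 9.34 FPKM by day. These 2 genes and LRAT among the rises reached 5 FPKM in 1 eye library only and so were bound to differ. Another cellular carrier, rlbp1a (ENSDARG00000012504), was close to equal at 127 FPKM at night and 117 FPKM by day.

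Among transcription factors of photoreceptors, 27 of 33 reached 5 FPKM, 5 rose and 3 fell. NR2E3 (ENSDARG00000045904), a nuclear receptor that in mouse rods holds cone genes down, was at 350.0 FPKM in the night eye and 28.9 FPKM in the day eye, 12.1-fold higher at night (11.3 to 13), while it was at 221 FPKM at night and 213 FPKM by day in the pineal gland. MEF2C (ENSDARG00000029764), a factor of neurons and muscle, was at 54.5 FPKM in the night eye and 2.69 FPKM in the day eye, 20.3-fold higher at night (18 to 22.9). rx1 (ENSDARG00000071684), a retinal homeobox gene, and SAMD11 (ENSDARG00000077852) fell to 24.8 and 29.9 FPKM at night, against 66.2 and 87.9 FPKM by day. The main photoreceptor factor crx (ENSDARG00000011989) was within 2-fold at 185 FPKM at night and 159.6 FPKM by day. NEUROD6, of which both genes rose, is a forebrain gene that the brain list also holds.

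Of 36 ribbon synapse genes 34 reached 5 FPKM, 1 rose and 3 fell, with a median of 0.05. PCLO (ENSDARG00000063299), the large scaffold of the active zone, was at 143 FPKM in the night eye and 43.6 FPKM in the day eye, and cabp5a (ENSDARG00000002576), a calcium sensor of bipolar cells, was at 82.9 FPKM in the night eye and 357 FPKM in the day eye, 4.3-fold lower at night (4.09 to 4.54). Of 61 genes of bipolar, amacrine, horizontal and ganglion cells 50 reached 5 FPKM, 9 rose and 2 fell. The bipolar factor VSX1 (ENSDARG00000056292) was at 85.3 FPKM at night and 35.1 FPKM by day. Of the 9 that rose, 6 were under 5 FPKM in the day eye, among them the neurofilament genes nefla (ENSDARG00000057568) and nefma (ENSDARG00000021351) at 9.72 and 30.3 FPKM at night, against 0.605 and 4.98 FPKM by day, which brain neurons also use. Genes of the inhibitory transmitter GABA were within 2-fold where abundant, such as GAD1 (ENSDARG00000027419) at 229 FPKM at night and 282 FPKM by day.

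Of 32 Muller glia genes 25 reached 5 FPKM, 6 rose and 4 fell. Among those that rose only S100B reached 5 FPKM in both eye libraries, and the others were bound to differ, whereas the 4 that fell all reached it in both. Those that rose included S100B (ENSDARG00000057598) at 115 FPKM at night and 5.47 FPKM by day and SLC1A3 (ENSDARG00000043148), a glial glutamate transporter gene, at 18 FPKM at night and 0.178 FPKM by day. Both are also brain glia genes and were at 54.5 and 7.87 FPKM in mixed day organs. Glutamine synthetase, the hallmark enzyme of Muller cells, was within 2-fold for GLUL (ENSDARG00000099776), at 526 FPKM at night and 458 FPKM by day, and fell for its copy ENSDARG00000100003, with 49 FPKM at night and 108 FPKM by day. Of 27 pigment epithelium and melanin genes 16 reached 5 FPKM, 0 rose and 1 fell.

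Collagens and other matrix and surface genes of cornea and sclera were lower as a list. Of 67 matched, 47 reached 5 FPKM, 0 rose, 8 fell and 42 were below 0, with a median of -0.57. Keratocan, KERA (ENSDARG00000056938), a proteoglycan of the corneal stroma, was at 25.3 FPKM in the night eye and 266 FPKM in the day eye, 10.5-fold lower at night (9.85 to 11.2). In the pineal libraries it was at 18.8 FPKM at night and 127 FPKM by day. BGN (ENSDARG00000002945) and LUM (ENSDARG00000045580), proteoglycans of the same family, fell to 9.68 and 20.7 FPKM at night, against 37 and 44.2 FPKM by day. The most abundant keratin genes, krt5 (ENSDARG00000058371) and krt91 (ENSDARG00000036830), of surface epithelium, were within 2-fold, at 948 and 812 FPKM at night and 1153 and 840.1 FPKM by day. The keratin gene krt8 (ENSDARG00000058358) fell, with 98.7 FPKM at night and 225 FPKM by day. The fall of keratocan was thus larger than that of any other gene of the list and of any lens gene.

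Immediate early genes respond to a stimulus within minutes, and 44 of 50 reached 5 FPKM. Of these 19 fell and 5 rose, with a median of -0.84. FOS (ENSDARG00000031683) was at 57.8 FPKM in the night eye and 243 FPKM in the day eye, 4.21-fold lower at night (3.97 to 4.47), and FOSB (ENSDARG00000055751) at 9.59 FPKM at night and 49.1 FPKM by day. klf2a (ENSDARG00000042667), a factor of vessel endothelium, was at 48.3 FPKM in the night eye and 236 FPKM in the day eye. Members of the AP-1, KLF, DUSP and BTG families were among the falls. Others of the AP-1 and DUSP families were within 2-fold, such as FOSL2 (ENSDARG00000040623) at 27.5 FPKM at night and 30.1 FPKM by day. The rises were fosaa, both NPAS4 genes, EGR3 and egr4, and NPAS4 and EGR genes respond to neuronal activity in mammals. The most abundant EGR gene, egr1 (ENSDARG00000037421), was close to equal at 116 FPKM at night and 111 FPKM by day. NPAS4 (ENSDARG00000055752) was at 99.1 FPKM in the night eye and 16.5 FPKM in the day eye, 6.02-fold higher at night (5.65 to 6.41), egr4 (ENSDARG00000077799) was at 28.3 FPKM at night and 1.84 FPKM by day, and EGR3 (ENSDARG00000089156) at 8.35 FPKM at night and 1.8 FPKM by day. A second NPAS4 gene, ENSDARG00000087753, was at 6.87 FPKM at night and listed at 0 by day. Of the 5 that rose, 4 were under 5 FPKM in the day eye.

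In the pineal gland the same list had a median of 0.45 over the members that reached 5 FPKM there. FOS was at 23.2 FPKM at night and 5.28 FPKM by day in the pineal gland, where its night level was the higher. The difference between the tissues was not tested, since each had 1 library per time.

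Several of the genes with the largest falls in the eye belong to none of the lists. esrrd (ENSDARG00000015064), an estrogen-related orphan receptor gene, was at 9.19 FPKM in the night eye and 280.0 FPKM in the day eye, 30.5-fold lower at night (26.4 to 35.4). TMX3 (ENSDARG00000038894), a thiol oxidoreductase of the endoplasmic reticulum, was at 7.78 FPKM in the night eye and 157 FPKM in the day eye. GJA10 (ENSDARG00000034930), a gap junction gene, was at 1.19 FPKM in the night eye and 36.6 FPKM in the day eye, 30.7-fold lower at night (21.9 to 44.6). It reached 5 FPKM by day only and so was bound to differ. A related gene of the inner retina list, gja10a (ENSDARG00000057792), had the opposite order, at 14.3 FPKM at night and 5.07 FPKM by day. slc1a8b (ENSDARG00000032465), a glutamate transporter gene, was at 15.6 FPKM in the night eye and 239 FPKM in the day eye, and NDRG1 (ENSDARG00000010420), a stress-responsive gene, at 42.3 FPKM in the night eye and 621 FPKM in the day eye. GJA10 and slc1a8b were under 1 FPKM in both mixed libraries. Among the rises outside the lists were cyp11c1 (ENSDARG00000042014), a steroid 11-beta-hydroxylase gene, at 72.8 FPKM in the night eye and 0.749 FPKM in the day eye, 97.2-fold higher at night (67.1 to 147). ANKRD33 (ENSDARG00000055638), an ankyrin repeat gene of photoreceptors, was at 230.1 FPKM in the night eye and 12.5 FPKM in the day eye, 18.4-fold higher at night (16.3 to 20.9). sun2 (ENSDARG00000086490), a nuclear envelope protein, was at 98 FPKM in the night eye and 5.99 FPKM in the day eye, and smu1b (ENSDARG00000051970), a splicing factor, at 47.2 FPKM in the night eye and 1.95 FPKM in the day eye. Of these, cyp11c1 and smu1b reached 5 FPKM at night only and so were bound to differ. The rises fgfbp3 (ENSDARG00000040162) and camk2n1b (ENSDARG00000052528), at 44.9 and 38.4 FPKM at night against 0.217 and 0.218 FPKM by day, were at least 4-fold higher in mixed day organs than in the day eye. Their low day eye values enter both comparisons. In the pineal gland fgfbp3 was at 382 FPKM at night and 383 FPKM by day, above its mixed day level of 20.6 FPKM. There camk2n1b was at 0.825 FPKM at night and 0.297 FPKM by day.

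The eye shared part of its differences with the pineal gland and fewer with mixed organs. At least 2-fold differences were found for 5.34% of 11753 genes in the pineal gland and for 3.40% of 13055 genes in mixed organs, counted in the same way. Of the 750 genes higher in the night eye, 417 reached 5 FPKM in the pineal gland. There 77 of them were also higher at night, which is 18.5% of these 417 and 27.5% of the genes higher in the night pineal gland, and 7 were lower. Of the 683 genes lower in the night eye 416 reached 5 FPKM in the pineal gland, where 93 were lower too, 22.4% of the 416 and 26.7% of the pineal ones, and 16 had the opposite order. In mixed organs 347 of the higher genes reached 5 FPKM, and 12 were shared (3.46% of the 347 and 11.8% of the mixed ones) while 10 had the opposite order. Of the lower genes 412 reached it, and 65 were shared with mixed organs (15.8% of the 412 and 19.0% of the mixed ones) while 1 had the opposite order. Over all genes that reached 5 FPKM in the other tissue, the shares at least 2-fold higher were 2.38% in pineal and 0.781% in mixed libraries, and those at least 2-fold lower were 2.96% and 2.62%.

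In all 3 tissues 8 genes were higher and 16 lower at night. Of the 8, 6 belong to the clock and D-box lists, which are nr1d4a, nr1d4b, NR1D1, dbpb, dbpa and PER1 (ENSDARG00000056885). The others were the cell cycle inhibitor cdkn1a (ENSDARG00000076554) and ENSDARG00000090424, which has no symbol. In the eye cdkn1a was at 47 FPKM in the night eye and 3.33 FPKM in the day eye. Of the 16 lower genes 9 belong to the clock and D-box lists, which are nfil3-5, nfil3-6, rorca, rorcb, rorab, cry3a, cry3b, PER3 and CRY1 (ENSDARG00000045768). For nr1d4a the difference was 7.63 in the eye, 6.5 in the pineal gland and 3.11 in mixed organs (log2), with 156 FPKM at night and 0.729 FPKM by day in the pineal gland and 20.7 FPKM at night and 1.51 FPKM by day in mixed organs. For nfil3-5 it was -6.65, -4.78 and -1.81 in the same order of tissues.

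**Figure D5:**
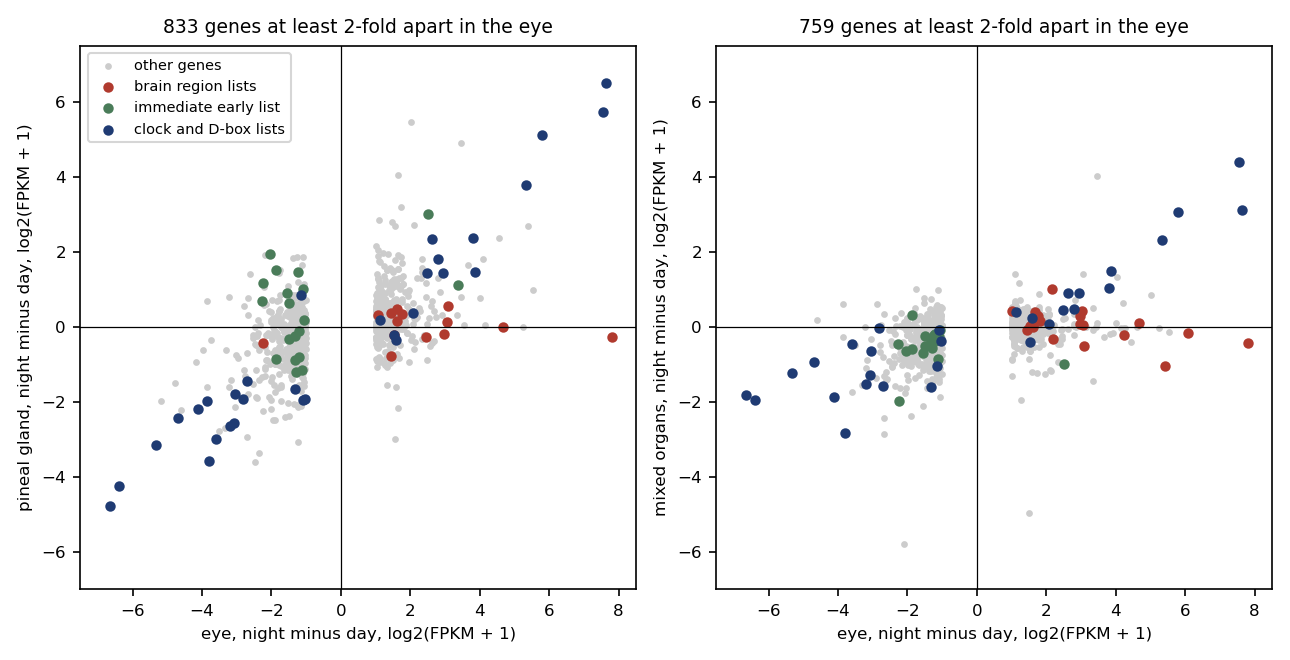
Night minus day difference on log2(FPKM + 1) in the eye (horizontal) against that in the pineal gland (left, 833 genes) and in mixed organs (right, 759 genes), for genes at least 2-fold apart in the eye that reached 5 FPKM in both tissues. Clock and D-box genes (blue) lie mostly in the lower left and upper right, several immediate early genes (green) that were lower in the night eye lie above 0 in the pineal panel, and brain region genes (red) lie to the right near 0 in both panels.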

How the data were processed

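Poly-A RNA of 6 pools was sequenced, 1 library for each tissue and time. The authors deposited FPKM values for 32105 genes. Per the submitters' processing notes FastQC, STAR 2.3.0e, danRer10, Subread, featureCounts and DESeq2 were named. The annotation release and the use of strand are not given in the sources used here, so reads of a gene and an antisense or overlapping partner cannot be told apart, and 3 deposited columns of means were not used. Whole reads were recovered from the FPKM steps with a procedure tested on simulated data. Of 146167 values above 0, 146142 came out whole within 0.02 read, and for 526 genes a common factor was put back. Whether each unit is a read or a fragment cannot be read from the table.

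The night minus day difference was taken on log2(FPKM + 1), a pseudocount of 1 FPKM that understates the change of low genes. The recovered reads of 1 library a side allow no count model of conditions, so none was fitted. Python 3.11.15, pandas 2.3.3, numpy 2.4.6, scipy 1.17.1 and matplotlib 3.10.9 were used. Symbols were found for 26269 gene IDs, many as the human symbol in capitals, and some stand for more than 1 gene, so IDs are printed. Of 1425 names on 33 gene lists, 175 had no match. Genes named were the 15 largest rises and falls with a symbol, the 15 rises left after taking out genes whose mixed day level was 4-fold the day eye level or more, the 15 falls left after taking out lens genes, and list members. A few members are counted in their lists but not reported here singly. The genes and lists were chosen with earlier results of these data known. The alternatives tried were 12 of pseudocount, filter, scaling and threshold, and 2 added after seeing the data.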

Additional observations from a re-analysis of the deposited data

Results flagged for a closer look

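The following members of the gene lists and genes named by size had opposite night and day orders in the eye and in another tissue, each past 2-fold on both sides. The difference between tissues was not tested, because each tissue had 1 library per time. Values are night minus day on log2(FPKM + 1).

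Against the pineal gland, 5 of these genes were low in the night eye and high in the night pineal gland. FOS (ENSDARG00000031683) was at -2.05 in the eye and 1.95 in the pineal gland, FOSB (ENSDARG00000055751) at -2.24 and 1.16, BTG2 (ENSDARG00000020298) at -1.88 and 1.50, and DUSP5 (ENSDARG00000019307) at -1.25 and 1.45. These 4 are stimulus-induced genes. The F-box gene fbxl3l (ENSDARG00000037738) was at -1.26 in the eye and 1.86 in the pineal gland, from 1.87 FPKM at night and 5.88 FPKM by day in the eye and 10.2 FPKM at night and 2.08 FPKM by day in the pineal gland. In each tissue fbxl3l reached 5 FPKM in 1 library only and so was bound to differ. The immediate early list as a whole had a median of -0.84 in the eye and 0.45 in the pineal gland.

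Against mixed organs, 2 of them were high in the night eye and low in the night mixed library. DDC (ENSDARG00000016494) was at 1.51 in the eye and -4.96 in mixed organs, where it was at 3.33 FPKM at night and 134 FPKM by day. The hormone gene oxt (ENSDARG00000042845) was at 5.43 in the eye and -1.04 in mixed organs, where it was at 4.04 FPKM at night and 9.38 FPKM by day. Both genes reached 5 FPKM at night only in the eye and by day only in mixed organs, and so were bound to differ in each. The list of other brain genes above also holds oxt, and the part of the brain markers in its difference was not tested.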

How the results depend on the processing

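No paired analysis was possible because each tissue and time had 1 library and the labels carry no replicate numbers, and no library could be left out for the same reason. The 750 genes higher in the night eye became 365 with a pseudocount of 5 FPKM, 1787 at 1.5-fold, 149 at 4-fold and 348 where both eye libraries had to reach 5 FPKM. The 683 lower genes became 426, 1460, 135 and 435 under the same settings. The 223 eye genes shared in direction with the pineal gland or mixed organs became 116, 679, 34 and 107. Under the remaining alternatives each of these counts stayed within 1.5 times. The 12 lists with a median at least 0.5 from that of all genes changed in number by less than 1.5 times in every alternative run for them. The medians themselves were less steady. For the 10 lists with a median of at least 0.5 in size, 106 medians were recomputed. Of these 61 were scored as the same, 44 as moved and 1 as reversed. Where both eye libraries had to reach 5 FPKM, the median of the D-box list was 0.0851 instead of -0.95 and that of the clock repressors -0.70 instead of 0.39, because 1 and 8 of their members no longer entered. Both medians thus changed sign. The clock repressors, at 0.39, are outside the 10 lists, so their change of sign is not in the count given for these. No single gene among the 40 named by size changed sign in 200 recomputed values, of which 68 moved past their counting interval. These genes were chosen for the largest differences, so a change of sign was hardly possible and its absence says nothing of smaller differences. Depth limits low genes most, since 1 read in a gene of 1 kb was worth 0.0745 FPKM in the night eye and 0.0666 FPKM in the day eye.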

Other observations

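Of 83 ribosomal protein genes 77 reached 5 FPKM, 0 passed 2-fold and 76 were below 0, with a median of -0.29. Their sum was 6200 FPKM in the night eye and 7527 FPKM in the day eye. Scaling by the median ratio lowers all such medians by about 0.10. Of 93 genes of oxidative phosphorylation 79 reached 5 FPKM, 4 rose and 1 fell, with a median of -0.10. Of 50 glycolysis genes 45 reached 5 FPKM, 3 rose and 4 fell. The phosphofructokinase gene PFKM (ENSDARG00000060797) was at 98.6 FPKM in the night eye and 27.7 FPKM in the day eye and the lactate carrier gene SLC16A3 (ENSDARG00000045051) at 36.7 FPKM in the night eye and 10.2 FPKM in the day eye. Among the falls were PFKFB4 (ENSDARG00000029075), which tunes phosphofructokinase, at 15.1 FPKM in the night eye and 87.5 FPKM in the day eye and PDK2 (ENSDARG00000059054), a kinase that slows pyruvate entry into mitochondria, at 1.83 FPKM in the night eye and 17 FPKM in the day eye. Several other genes of these families were within 2-fold and somewhat higher at night, among them PFKFB3 (ENSDARG00000001953) at 94.2 FPKM at night and 61.5 FPKM by day and PDK1 (ENSDARG00000013128) at 25.1 FPKM at night and 18.8 FPKM by day. The third glycolysis gene that rose, ALDOC (ENSDARG00000057661), is the cerebellar aldolase, with 34.5 FPKM at night and 0.881 FPKM by day, and it is on the brain list too.

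Of 56 heat shock and chaperone genes 47 reached 5 FPKM, 0 rose and 4 fell. FKBP5 (ENSDARG00000028396), a co-chaperone that in mammals responds to glucocorticoid, was at 37.1 FPKM in the night eye and 373 FPKM in the day eye, 10.1-fold lower at night (9.57 to 10.6). Of 47 sterol and fatty acid genes 35 reached 5 FPKM, 0 rose and 2 fell. Few of 50 cell cycle genes reached 5 FPKM, 11 in all, of which 2 rose and 2 fell. Of those that rose or fell, only CDKN1B (ENSDARG00000029018) reached it in both eye libraries, at 14.8 FPKM at night and 6.72 FPKM by day. The others, CCNE2 and WEE1 by day and cdkn1a at night, reached it in 1 library only and so were bound to differ. CCNE2 (ENSDARG00000098529), a cyclin of the G1 to S step, was at 1.76 FPKM in the night eye and 25 FPKM in the day eye, 14.2-fold lower at night (10.7 to 19.2), and WEE1 (ENSDARG00000093864), a kinase that holds back mitosis and follows the clock in mouse liver, was at 1.3 FPKM in the night eye and 6.83 FPKM in the day eye. Of 24 genes of DNA repair and light response 15 reached 5 FPKM, 1 rose and 2 fell. Those that rose or fell each reached it in 1 eye library only and so were bound to differ. lonrf1 (ENSDARG00000078567) was at 1.29 FPKM in the night eye and 25.2 FPKM in the day eye, 19.5-fold lower at night (15.5 to 24.8).

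Of 55 muscle genes 23 reached 5 FPKM, 1 rose and 0 fell, and the list summed to 635 FPKM in the night eye and 591 FPKM in the day eye. Of 23 erythrocyte genes 9 reached 5 FPKM, 1 rose and 1 fell. Of 42 leukocyte genes 10 reached 5 FPKM, 0 rose and 1 fell. Of 10 innate immune and oxidant enzyme genes 2 reached 5 FPKM, 0 rose and 1 fell, which was NOS2 (ENSDARG00000026925) with 0.683 FPKM at night and 6.18 FPKM by day.

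Outside the clock lists, 7 genes were lower at night in all 3 tissues. They were DHRS13 (ENSDARG00000098746) with 4.03 FPKM at night and 31.3 FPKM by day in the eye, sult1st6 (ENSDARG00000006811) with 1.68 FPKM at night and 13.6 FPKM by day, aste1a (ENSDARG00000070132) with 1.62 FPKM at night and 11.8 FPKM by day, TIMP4 (ENSDARG00000100795) with 10.9 FPKM at night and 43.6 FPKM by day, bco2l (ENSDARG00000027620) with 1.95 FPKM at night and 6.5 FPKM by day, gsto1 (ENSDARG00000022183) with 8.88 FPKM at night and 20.2 FPKM by day, and RBP4, given above.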
